A study of Solanum tuberosum with 8 samples.

Results

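The genes described here encode patatins, the storage proteins of the potato tuber, and storage globulins, which are better known from seeds. They were chosen by product name (patatin, cruciferin, legumin, vicilin, globulin, 12S seed or 11S) and by a sum of at least 80 counts over 8 RNA-seq libraries. Of 32768 genes in the count table, 47 matched these words and 27 reached the sum. The 27 were 17 patatins, 7 globulins and 3 plastoglobulins, which match by their name but are plastid lipid-droplet proteins and are given apart. The other 20 matched genes had at most 68 counts in all, and no library held more than 21 counts of any of them.

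The libraries were made from RNA of fully developed, untreated tubers of potato (Solanum tuberosum L.) taken after harvest from pot-grown plants of a diploid hybrid population. The 4 bulks compared had 2 replicate libraries each (A and B), and a library held RNA pooled from 6 plants. Bulk H1 had high tuber starch content (TSC) and strong expression of AGPaseS-a, H2 had high TSC and weak AGPaseS-a expression, L1 had low TSC and strong AGPaseS-a expression, and L2 had low TSC and weak AGPaseS-a expression. AGPaseS-a is a subunit gene of ADP-glucose pyrophosphorylase, the enzyme that makes the glucosyl donor of starch synthesis. The study sorted plants by AGPaseS-a expression measured apart from these libraries, and it found the gene hard to analyse by RNA-seq. All plants came from a cross of the same parents, so the bulks differ in many segregating loci besides these traits. The study calls the replicates biological, but no source used here says if A and B drew on the same plants, so the p-values measure only the spread between these libraries.

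Patatins are vacuolar glycoproteins of tuber parenchyma cells that also hydrolyse acyl lipids, and they come from a large family of near-identical genes. The related patatin-like proteins are lipid acyl hydrolases known from Arabidopsis in defence and root development. Globulins of the 12S type, such as the cruciferins of the Brassicaceae, fill protein storage vacuoles of seeds, where vacuolar processing enzymes cleave their precursors. Vicilins are the 7S counterparts of these proteins, and basic 7S globulins, described in soybean, resemble aspartic proteases.

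The study selected a pair of these genes for RT-qPCR, the cruciferin gene PGCRURSE5 (LOC102601158) and the patatin gene Pat3-k1 (LOC107059465). Their primers are shown because the results turn on these transcripts. Each is written 5′ to 3′ in lower case, as designed by the study.
PGCRURSE5 forward: actcaattcctccttcatcag
PGCRURSE5 reverse: ttggaatgtggtgctgtact
Pat3-k1 forward: ggcactaattcagagtttgc
Pat3-k1 reverse: cacagaagcatcatcaaatg
The forward primer of PGCRURSE5 is 21 bases long and the other 3 primers are 20 bases long. Since the study selected both genes on these libraries, their directions here are not independent evidence.

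Between 15293539 and 31943185 counts fell on genes per library. H1 replicate A and H2 replicate B stood apart from the other 6 libraries. The summed level of 11 genes named after the plastid genome was 402 CPM in H1 replicate A and 252 CPM in H2 replicate B, against 39.3 to 67.7 CPM elsewhere. CPM are counts divided by the library total after TMM scaling. Markers of dividing cells (11 genes matched by the words cyclin-A, cyclin-B and histone H4, of which LOC102601636 is a calcyclin-binding protein and no cyclin) summed to 1057 and 940 CPM in these libraries and to 403 to 515 CPM in the others. Markers of tuber storage cells (9 genes of starch and sucrose metabolism) summed to 6117 to 10549 CPM. Those of green tissue (21 genes) summed to 64.2 to 282 CPM and those of periderm (11 genes) to 36.8 to 96.0 CPM. The periderm list, also matched by words, includes LOC102595519, a probable 1-acyl-sn-glycerol-3-phosphate acyltransferase 5. Its name only contains that of the glycerol-3-phosphate acyltransferase 5 sought. Each of these 4 marker lists held 2 genes that were at 0 in at least 1 library. Many results for members that rest on H1 replicate A or H2 replicate B are given with and without them, and those for the marker lists are not. The part these libraries play in any result was not tested.

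Storage patatins made up a larger share of the counts in the high-TSC libraries on average, but the ranges overlapped. The 6 storage patatin genes took 1.54% and 2.66% of all counts in H1, 2.40% and 1.78% in H2, 1.478% and 1.502% in L1, and 1.92% and 1.44% in L2 (replicates A and B in this order, as in every list of values below). The 95% Wilson intervals reached at most 0.00699 percentage points to each side of these shares, and cover counting error only. H1 replicate A, a high-TSC library, had a lower share than L2 replicate A, a low-TSC library. In bulk RNA, fewer cells of a type and less RNA per cell cannot be told apart.

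Patatin-2-Kuras 4-like (LOC102605593) took the largest part of the storage patatin counts in every library. The deposited files place it on the minus strand of scaffold NW_006239325.1 of SolTub_3.0, from 524564 to 527836. RefSeq gives 524543 to 527821 and lists it as a transcribed pseudogene with the synonyms pat2 and pat2-k1. Its level was 10551 and 13835 CPM in H1, 11079 and 10018 CPM in H2, 9499 and 7968 CPM in L1, and 7515 and 5137 CPM in L2. All 4 high-TSC libraries lay above all 4 low-TSC libraries, and the gap between 10018 and 9499 CPM was smaller than the spread within H1. How many of all tested genes separate the libraries in this way was not counted.

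Pat3-k1, annotated as a probable inactive patatin-3-Kuras 1, had the largest ratio of high-TSC to low-TSC level among the storage patatins. Its annotated locus is 278 bp long, at 44 to 321 on the plus strand of scaffold NW_006246733.1, on which it is the sole annotated gene. The level of Pat3-k1 was 4241 and 3049 CPM in H1, 2874 and 4027 CPM in H2, 576 and 1140 CPM in L1, and 2617 and 1920 CPM in L2. Every low-TSC library lay below every high-TSC library, a separation whose share among all tested genes was not counted, and L1 lay below L2. The bulk means were 3645 ± 843 CPM for H1, 3451 ± 815 for H2, 858 ± 399 for L1 and 2268 ± 493 for L2 (SD, n = 2).

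A second gene of the same name (LOC107059466) has a locus of 136 bp, at 150 to 285 on the minus strand of scaffold NW_006247319.1, where it is also alone. Its level was 761 and 1178 CPM in H1, 1231 and 1118 CPM in H2, 248 and 511 CPM in L1, and 1099 and 742 CPM in L2. Here too L1 was the lowest bulk, but H1 replicate A lay within the range of L2. Pat3-k1 had 5.58 counts for each count of its namesake in H1 replicate A, 3.60 in H2 replicate B and 2.23 to 2.59 in the other 6 libraries, so the ratio was similar in all but the libraries that stood apart. Such short loci may be parts of longer genes, and reads of near-identical patatin genes elsewhere may have been counted on them or lost from them. How reads that match several genes were treated is not stated in any source used here, so the split of counts among patatins is uncertain.

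For the remaining storage patatins the ranges of the high-TSC and low-TSC libraries overlapped. Patatin-05-like (LOC102605260), 33731 bp from patatin-2-Kuras 4-like on the same scaffold (486313 to 490832, minus strand), had 2094 and 4319 CPM in H1, 5575 and 2343 CPM in H2, 3632 and 3132 CPM in L1, and 4955 and 3460 CPM in L2. The neighbours patatin-T5-like (LOC102602048, scaffold NW_006239698.1, 91501 to 96458) and patatin-02-like (LOC102601036, same scaffold, 58642 to 63336) lie 28164 bp apart. Patatin-T5-like ranged from 826 CPM in L1 replicate A to 2630 CPM in H1 replicate B, and patatin-02-like from 23.9 to 224 CPM in the same libraries. H1 replicate A and H2 replicate B were the lowest high-TSC libraries for all 3 genes, while they were the highest of all libraries for Pat3-k1. Per kilobase of annotated locus, introns included, the mean level over 8 libraries was 9193 CPM for Pat3-k1, 6331 CPM for its namesake, 2887 CPM for patatin-2-Kuras 4-like, 816 CPM for patatin-05-like, 343 CPM for patatin-T5-like and 24.5 CPM for patatin-02-like.

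**Figure D1:**
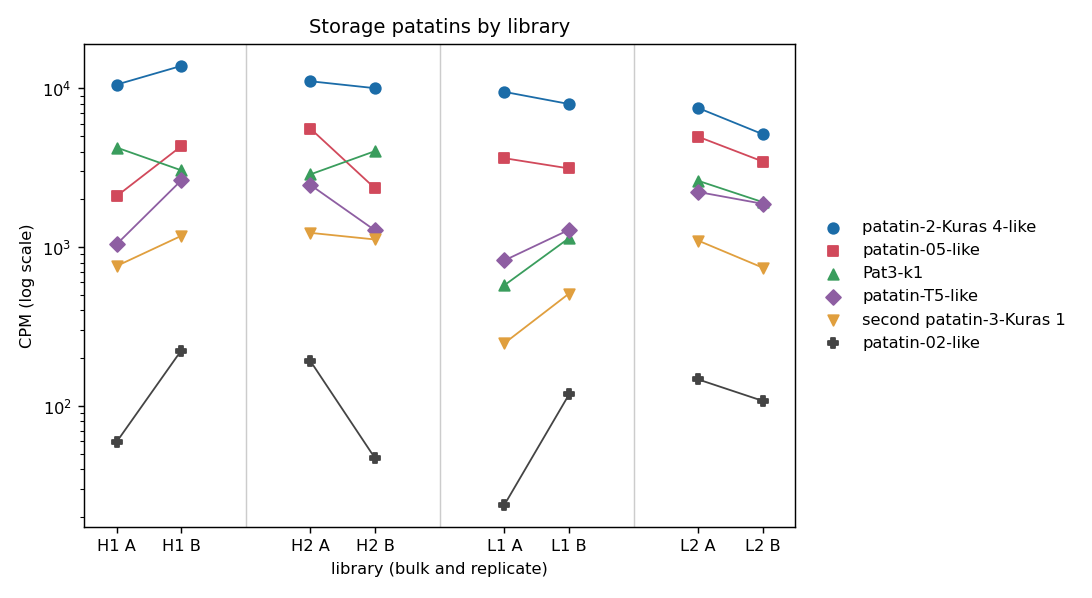
Level of the 6 storage patatins (CPM, log axis) in each library, with a line joining replicates A and B of a bulk. Patatin-2-Kuras 4-like stays between 5137 and 13835 CPM, and Pat3-k1 drops to 576 and 1140 CPM in L1.

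The make-up of the storage patatin counts differed between bulks. Pat3-k1 supplied 3.89% and 8.05% of them in L1, against 22.6% and 12.1% in H1, 12.3% and 21.4% in H2, and 14.1% and 14.5% in L2. Its share was thus lowest in L1, and in the other 6 libraries it was at least 12.1%. Patatin-2-Kuras 4-like supplied 64.2% and 56.3% in L1, 40.5% and 38.8% in L2, 56.3% and 54.8% in H1, and 47.3% and 53.2% in H2. L2 was the bulk with the smallest share of this gene, and patatin-05-like took 26.7% and 26.1% there, against 11.2 to 24.5% in the other libraries. The ratio of patatin-05-like to patatin-2-Kuras 4-like counts was 0.659 and 0.673 in L2, 0.382 and 0.393 in L1, 0.198 and 0.312 in H1, and 0.503 and 0.234 in H2, so both low-TSC bulks had close replicates and the high-TSC bulks did not. Wilson intervals reached at most 0.20 percentage points to each side of these shares, far less than the spread between replicates, and no test was run on shares.

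**Figure D2:**
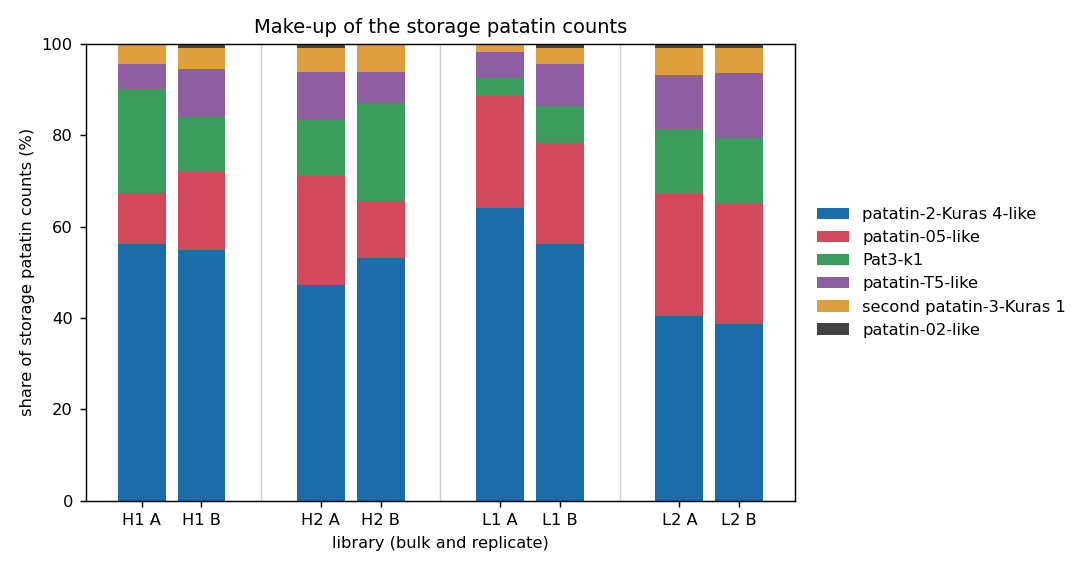
Share of each storage patatin gene (stacked bars, % of storage patatin counts) in each library. The Pat3-k1 segment is 3.89% and 8.05% in L1 and 12.1 to 22.6% in the other libraries.

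Among the globulins, the 12S type reached the highest levels, and its 3 genes had unlike patterns. PGCRURSE5 is annotated on the minus strand of scaffold NW_006239031.1 from 1214745 to 1216222 (transcript variant X1). Its level was 9.05 and 24.6 CPM in H1, 55.6 and 12.4 CPM in H2, 96.2 and 130 CPM in L1, and 9.58 and 9.79 CPM in L2. Both L1 libraries lay above all others, and both L2 libraries lay below both H2 libraries. The bulk means were 16.8 ± 10.96 CPM for H1, 33.98 ± 30.5 for H2, 113 ± 23.8 for L1 and 9.69 ± 0.14 for L2 (SD, n = 2).

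The 12S seed storage protein CRD-like gene (LOC102600491) is the nearest globulin to PGCRURSE5, on the same strand at 1175564 to 1177110, 37634 bp away. RefSeq gives PGCRURSE5 a longer span, from 1194972, which leaves 17861 bp between them and overlaps no other annotated gene. The CRD-like gene had 68.7 and 80.1 CPM in H1, 274 and 98.7 CPM in H2, 178 and 217 CPM in L1, and 96.5 and 106 CPM in L2. L1 again lay above H1, but the highest library was H2 replicate A, and the other H2 library lay within the range of L2. The ratio of PGCRURSE5 counts to CRD-like counts stood at 0.542 and 0.599 in L1, against 0.132 and 0.307 in H1, 0.203 and 0.125 in H2, and 0.0993 and 0.0923 in L2, so the neighbours did not keep a fixed ratio.

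The third gene, 12S seed storage globulin 1-like (LOC102587356, scaffold NW_006239356.1, 368029 to 369964, minus strand), had 115 and 128 CPM in H1, 61.2 and 40.4 CPM in H2, 45.0 and 100.0 CPM in L1, and 58.6 and 51.9 CPM in L2. It was highest in H1, with both libraries above all others. The 3 further matched genes of this type, named legumin B-like or 11S globulin subunit beta-like, had at most 11 counts over all libraries.

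**Figure D3:**
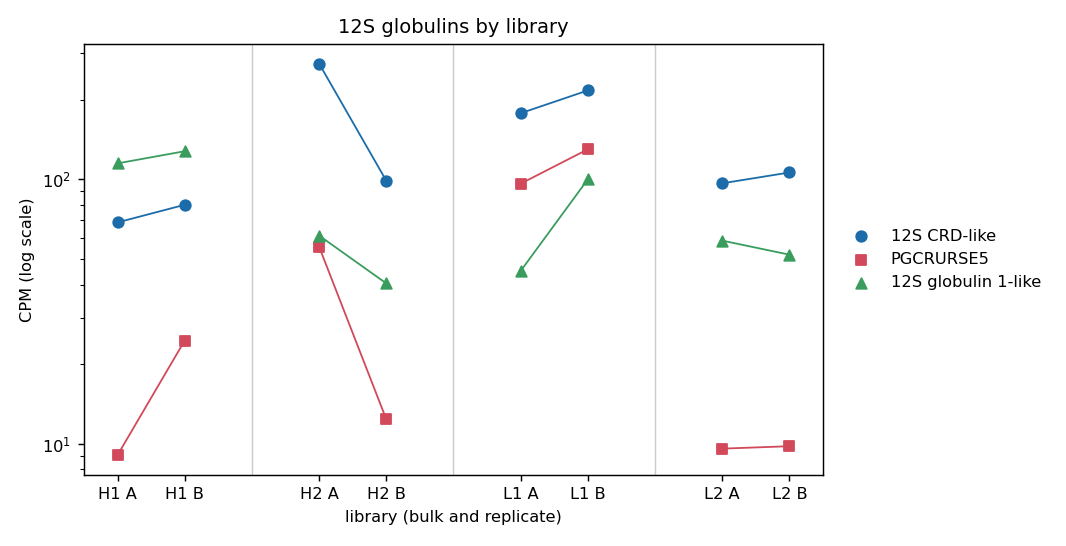
Level of the 3 globulin genes of the 12S type (CPM, log axis) in each library, with a line joining replicates A and B. PGCRURSE5 is at 96.2 and 130 CPM in L1 and at 55.6 CPM or less elsewhere.

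**Figure D4:**
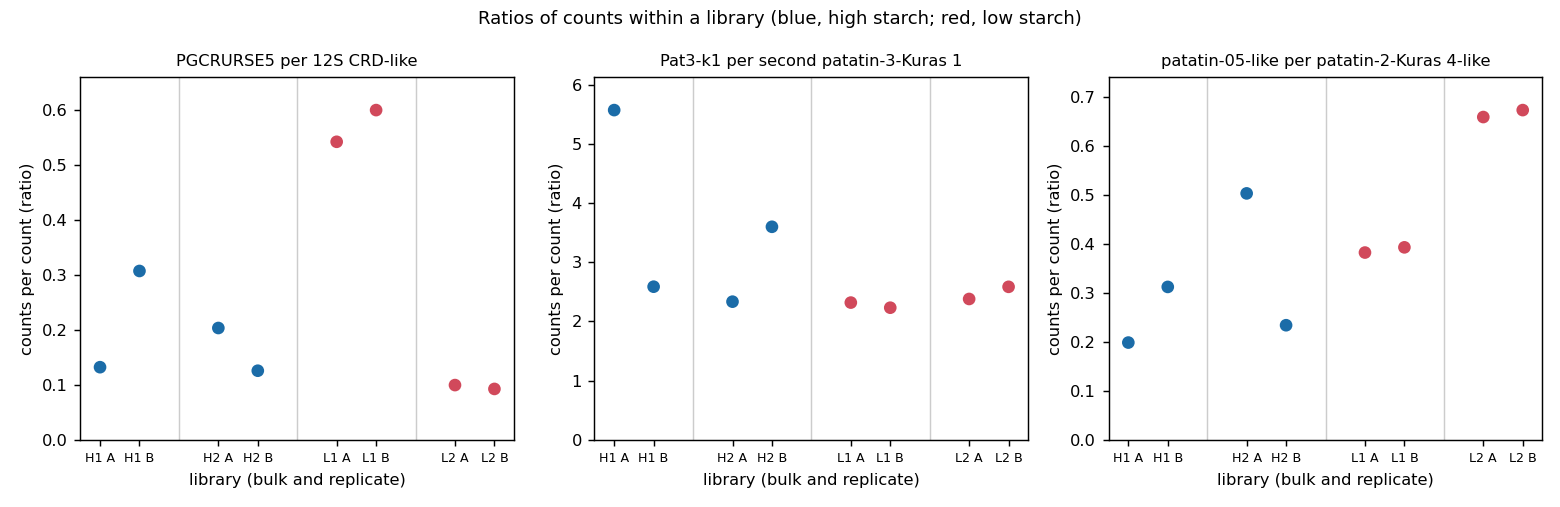
Ratios of counts within each library (linear axes from 0) for PGCRURSE5 per CRD-like gene, Pat3-k1 per second patatin-3-Kuras 1 gene, and patatin-05-like per patatin-2-Kuras 4-like. The first ratio is highest in L1 (0.542 and 0.599), the second is at 5.58 for H1 replicate A and from 2.23 to 3.60 elsewhere, and the third is highest in L2 (0.659 and 0.673).

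The comparison of L1 with H1 asked which genes differ with TSC where AGPaseS-a is strongly expressed. In L1, PGCRURSE5 and its neighbour were several-fold higher and both patatin-3-Kuras 1 genes were lower than in H1, yet no member was called in edgeR's quasi-likelihood test (0 of 27, background 0% of 20389 genes). A call needed a Benjamini-Hochberg FDR below 0.05 together with a log2FC of 1.5 or more in either direction. At an unadjusted p under 0.05 there were 5 members, 3 higher and 2 lower in L1, against a background of 5.73% of all tested genes. With DESeq2, 2 members were called, against a background of 0.14%, and 8 were at an unadjusted p under 0.05, against 6.64%. Without L1 replicate A, edgeR gave 3 members at that p.

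PGCRURSE5 was 6.69-fold higher in L1 than in H1, a log2FC of 2.74 with a standard error (SE) of 0.70 and an unadjusted p of 0.00419. Its Benjamini-Hochberg FDR was 0.789 in edgeR's quasi-likelihood test and 0.0325 in DESeq2. The log2FC was 3.65 without H1 replicate B, and 2.20 without H1 replicate A and H2 replicate B. The CRD-like gene had a log2FC of 1.41 (SE 0.43, unadjusted p = 0.0114), which became 1.30 without those libraries. Of the basic 7S globulins, LOC102595370 had a log2FC of 0.99 (SE 0.40, unadjusted p = 0.0390), which was 0.49 without L1 replicate A, the library that held its highest level of 18.1 CPM.

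Pat3-k1 was 4.25-fold lower in L1 than in H1. Its log2FC was -2.09 (SE 0.42, unadjusted p = 0.00100), with a Benjamini-Hochberg FDR of 0.789 in edgeR's quasi-likelihood test and of 0.00202 in DESeq2. Without H1 replicate A and H2 replicate B it was -1.83. The second patatin-3-Kuras 1 gene had a log2FC of -1.35 (SE 0.41, unadjusted p = 0.0108), and -1.63 without those libraries. Over all fits with libraries left out, the value of this second gene ranged from -1.96 to -0.92. For patatin-2-Kuras 4-like the log2FC was -0.48 (SE 0.34, unadjusted p = 0.189) and for patatin-05-like 0.08 (SE 0.49, unadjusted p = 0.880). The sign of the latter turned to -0.35 without H1 replicate A. Over the 6 storage patatins the median log2FC was -0.90, with 5 lower, and over the 7 globulins it was -0.74, with 4 lower, beside 0.02 over all tested genes. The patatin median was -0.12 without H1 replicate B and -1.55 without L1 replicate B. The globulin median was -0.27 without L1 replicate A, -0.47 without H1 replicate B and -1.30 without L1 replicate B, each time of the opposite sign to PGCRURSE5 and its neighbour.

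The comparison of L2 with H2 asked the same where AGPaseS-a is weakly expressed, with no library in common with the first. PGCRURSE5 was lower in L2 than in H2, as were the patatin-like protein genes LOC102606222 and LOC102595021, and again no member was called in edgeR's quasi-likelihood test (0 of 27, background 0%) or in DESeq2 (background 0.148%). At an unadjusted p under 0.05 there were 3 members, all lower in L2, against a background of 2.36%, and 5 members with DESeq2, against 2.72%. The edgeR count was 1 without L2 replicate A or without L2 replicate B and 6 without H2 replicate B.

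PGCRURSE5 had a log2FC of -1.81 (SE 0.68, unadjusted p = 0.0277), a 3.51-fold lower level in L2, with a Benjamini-Hochberg FDR of 1.00 in edgeR's quasi-likelihood test. This value rests on H2 replicate A, at 55.6 CPM: it was -0.34 without that library, and -2.52 without H1 replicate A and H2 replicate B. For the CRD-like gene the log2FC was -0.88 (SE 0.43, unadjusted p = 0.0738), 0.05 when H2 replicate A was left out, and -1.43 without H1 replicate A and H2 replicate B. Pat3-k1 had a log2FC of -0.61 (SE 0.41, unadjusted p = 0.173) and its namesake -0.35 (SE 0.41, unadjusted p = 0.413). The former was -0.34 without H2 replicate B and -0.39 without L2 replicate B, and the latter -0.66 without L2 replicate A and -0.09 without L2 replicate B. Patatin-2-Kuras 4-like had -0.74 (SE 0.34, unadjusted p = 0.0591) and patatin-05-like 0.09 (SE 0.49, unadjusted p = 0.864), which was -0.41 without H2 replicate B. The median log2FC was -0.13 over the storage patatins, 3 of them lower, and -0.18 over the globulins, 4 of them lower, beside 0.01 over all tested genes. The patatin median was 0.21 without H2 replicate A and 0.08 without L2 replicate B, and the globulin median was -0.70 without L2 replicate A.

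The patatin-like proteins, which act on membrane lipids rather than as reserves, held the other members at an unadjusted p under 0.05 in H2/L2. Patatin-like protein 3 (LOC102606222, scaffold NW_006239109.1, 775259 to 777935, minus strand) had 32.3 and 39.7 CPM in H1, 79.1 and 47.5 CPM in H2, 26.0 and 27.4 CPM in L1, and 23.7 and 27.1 CPM in L2. All low-TSC libraries lay below all high-TSC libraries, and the share of all tested genes that do so was not counted. In H2/L2 its log2FC was -1.32 (SE 0.30, unadjusted p = 0.00211), with a Benjamini-Hochberg FDR of 1.00 in edgeR's quasi-likelihood test and of 0.0651 in DESeq2, and in H1/L1 it was -0.43 (SE 0.30, unadjusted p = 0.184).

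A neighbour of this gene on the scaffold, patatin-like protein 2 (LOC102595021, 789543 to 790266), had 2.302 and 3.22 CPM in H1, 6.27 and 4.98 CPM in H2, 1.57 and 2.12 CPM in L1, and 1.87 and 2.39 CPM in L2. Its log2FC in H2/L2 was -1.40 (SE 0.49, unadjusted p = 0.0199). Both H2 libraries lay above all others, and its counts summed to 643 over the 8 libraries. The 2 genes lie 11607 bp apart.

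Another patatin-like protein 2 gene 5904 bp further on (LOC102605882, 796171 to 798778) had 132 and 147 CPM in H1, 317 and 190 CPM in H2, 115 and 176 CPM in L1, and 160 and 143 CPM in L2. It too was highest in H2, with a log2FC of -0.74 (SE 0.33, unadjusted p = 0.0517) in H2/L2 and 0.06 (SE 0.33, unadjusted p = 0.859) in H1/L1. The members include 2 further patatin-like protein 2 genes of this scaffold, LOC107061978 and LOC102579557, 6688 bp apart, and its other patatin-like protein 2 genes did not reach 80 counts. Patatin-like protein 6 (LOC102587900), on another scaffold, had 88.5 and 66.1 CPM in H1, 40.4 and 61.8 CPM in H2, 65.6 and 68.7 CPM in L1, and 69.2 and 47.7 CPM in L2. Its lowest library was H2 replicate A, in which the 3 neighbours above were highest. The remaining members of the group were 7 genes below 3 CPM in every library, of which LOC102579557 had 0 counts in H1 replicate A. Genes of the same product name did not share a direction. The largest positive log2FC of any member in H2/L2 was 1.65 (SE 0.94, unadjusted p = 0.115), for the patatin-like protein 2 gene LOC102598764, at 0.60 and 0.26 CPM in H2 and 0.86 and 1.88 CPM in L2. Over the 11 patatin-like proteins the median log2FC was -0.21 in H1/L1 and 0.01 in H2/L2.

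The remaining globulins were scarce. The basic 7S globulin gene LOC102588581 had 10.5 and 17.2 CPM in H1, 23.7 and 7.05 CPM in H2, 4.14 and 7.15 CPM in L1, and 10.4 and 9.49 CPM in L2, and LOC102595370 had 7.38 and 6.77 CPM in H1, 6.98 and 11.2 CPM in H2, 18.1 and 9.89 CPM in L1, and 10.7 and 8.46 CPM in L2. By bulk mean, L1 was lowest for the former (5.65 CPM) and highest for the latter (14.0 CPM), with single libraries of H2 overlapping both. Of the vicilin-like antimicrobial peptide genes, LOC102598565 had 10.1 and 7.003 CPM in H1, 2.304 and 5.63 CPM in H2, 3.45 and 4.28 CPM in L1, and 3.37 and 6.70 CPM in L2, and LOC102599750 had 0.36 to 1.35 CPM. The plastoglobulin gene LOC102582412 had 15.4 to 21.4 CPM in the high-TSC libraries and 21.8 to 34.9 CPM in the low-TSC libraries, and the other 2 plastoglobulin genes had 1.55 to 9.55 CPM.

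**Figure D5:**
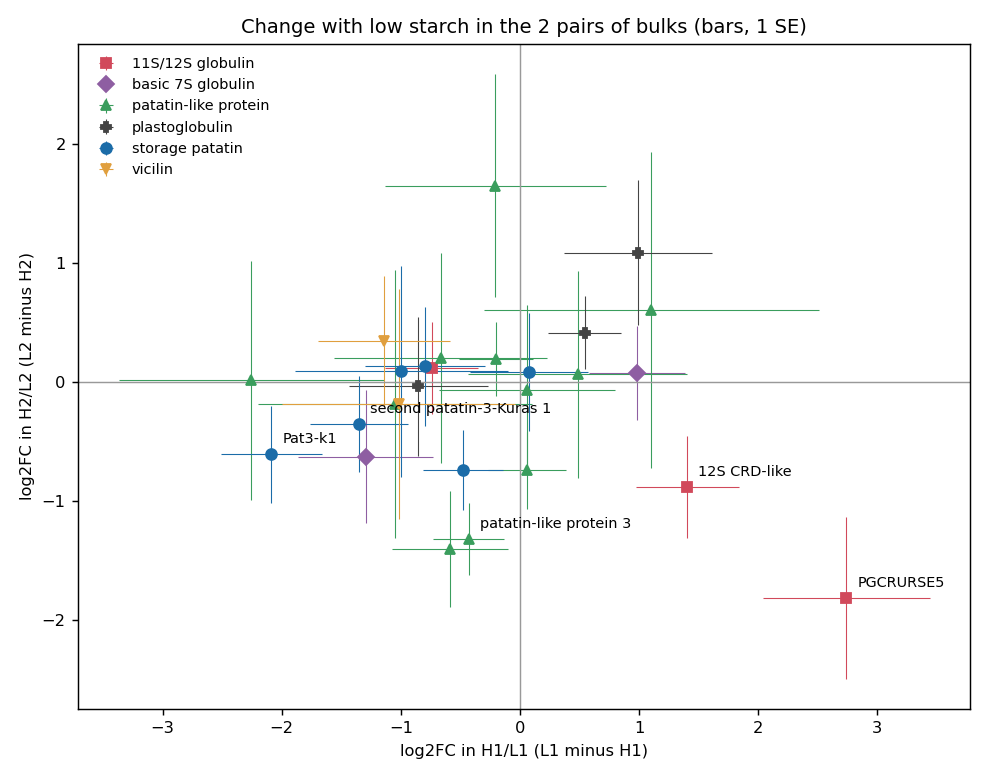
The log2FC of the 27 members in H1/L1 (x axis) and H2/L2 (y axis), with bars of 1 SE and a symbol for each group of genes. PGCRURSE5 (2.74 and -1.81) and the CRD-like gene (1.41 and -0.88) lie at the lower right, and Pat3-k1 (-2.09 and -0.61) at the lower left.

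The interaction, which subtracts the log2FC of H2/L2 from that of H1/L1, asks whether the difference with TSC was the same at strong and weak AGPaseS-a expression. It was largest for PGCRURSE5, which had opposite signs in the 2 comparisons. No member passed the thresholds in edgeR's quasi-likelihood test (0 of 27, background 0%), 3 members were at an unadjusted p under 0.05 against a background of 1.57%, and with DESeq2 1 member was called (background 0.0234%) and 3 were at an unadjusted p under 0.05 (background 1.97%). The edgeR count was 6 without H2 replicate B and 5 without L1 replicate B. PGCRURSE5 had an interaction log2FC of 4.55 (SE 0.98, unadjusted p = 0.00146), with a Benjamini-Hochberg FDR of 1.00 in edgeR's quasi-likelihood test and of 0.00510 in DESeq2. It was 4.72 without H1 replicate A and H2 replicate B, and 3.09 when H2 replicate A was left out. The interaction of the CRD-like gene was 2.28 (SE 0.61, unadjusted p = 0.00535), 2.73 without H1 replicate A and H2 replicate B, and 1.37 when H2 replicate A was left out. That of Pat3-k1 was -1.48 (SE 0.57, unadjusted p = 0.0319) and -1.49 without H1 replicate A and H2 replicate B. Over all fits with libraries left out, the Pat3-k1 interaction ranged from -2.06 to -1.07.

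Low against high TSC over all libraries (H/L) was taken as the average of both L bulks less that of both H bulks. The storage patatins Pat3-k1 and patatin-2-Kuras 4-like and patatin-like protein 3 were lower in the low-TSC bulks, and no member was called in edgeR's quasi-likelihood test (0 of 27, background 0%) or in DESeq2 (background 0.353%). At an unadjusted p under 0.05 there were 7 members in edgeR, 6 of them lower at low TSC, against a background of 7.84%, and 7 in DESeq2, against 8.35%. The edgeR count was 3 without L1 replicate A and 4 without L2 replicate B. These values use the same libraries as the comparisons above and add no independent evidence.

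Pat3-k1 had a log2FC of -1.35 (SE 0.29, unadjusted p = 0.00155) in H/L and its namesake -0.85 (SE 0.29, unadjusted p = 0.0180). DESeq2 gave Pat3-k1 an FDR of 0.00269 with a fold change short of the threshold. Patatin-2-Kuras 4-like had -0.61 (SE 0.24, unadjusted p = 0.0328), or 1.53-fold lower. Its log2FC ranged from -0.76 to -0.48 when libraries were left out. Patatin-like protein 3 had -0.87 (SE 0.21, unadjusted p = 0.00295) with an FDR of 0.0473 in DESeq2, and the patatin-like protein 2 gene LOC102595021 -0.99 (SE 0.34, unadjusted p = 0.0196). For the basic 7S globulin gene LOC102588581 it was -0.96 (SE 0.40, unadjusted p = 0.0414), and -0.39 without H2 replicate A. The member that was higher at low TSC was a plastoglobulin gene, LOC102584403, at 1.04 (SE 0.44, unadjusted p = 0.0429). It was 1.59 without H2 replicate A, 0.79 (unadjusted p = 0.160) without L2 replicate B, 0.87 (unadjusted p = 0.127) without L1 replicate B, and 0.69 with H1 replicate A and H2 replicate B left out. The Benjamini-Hochberg FDR of these members was 0.623 in edgeR's quasi-likelihood test. PGCRURSE5, with its opposite signs, had 0.47 (SE 0.47, unadjusted p = 0.348). The median log2FC was -0.53 over the storage patatins, -0.31 over the globulins and 0.02 over all tested genes. With libraries left out, the patatin median was between -0.91 (without H1 replicate A and H2 replicate B) and -0.21 (without H1 replicate B), and the globulin median between -0.47 (without L1 replicate B) and -0.01 (without H2 replicate B). Of the 11 genes matched as markers of dividing cells, 10 were lower in H/L, with a median log2FC of -0.72. In edgeR 5 of them were at an unadjusted p under 0.05, against a background of 7.84%, and DESeq2 called 2, against 0.353%. The 5 include LOC102601636, the calcyclin-binding protein, which is no cyclin. The list had its highest sums in H1 replicate A and H2 replicate B, both high-TSC libraries, and no value without them was computed. The part of these genes in the patatin values was not tested.

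Strong against weak AGPaseS-a expression was taken as the average of bulks H1 and L1 less that of bulks H2 and L2. In this contrast the ADP-glucose pyrophosphorylase large-subunit genes AGPS1 and LOC102600909 had a log2FC of 0.19 (SE 0.28) and -0.11 (SE 0.22). Averaged over both TSC classes, PGCRURSE5 and 12S globulin 1-like, of the 3 globulin genes of the 12S type, had higher levels at strong expression. The CRD-like gene did not (log2FC -0.18, SE 0.30, unadjusted p = 0.563), and both patatin-3-Kuras 1 genes had lower average levels. No member was called in edgeR's quasi-likelihood test (0 of 27, background 0.0049%, 1 gene of 20389) or in DESeq2 (background 0.207%). At an unadjusted p under 0.05 there were 4 members in edgeR, against a background of 3.13%, and 7 in DESeq2, against 3.49%. The edgeR count was 8 without H2 replicate B, 2 without L1 replicate A or without L2 replicate A, and 1 without L2 replicate B. The log2FC was 0.82 (SE 0.27, unadjusted p = 0.0164) for 12S globulin 1-like and 0.48 without L1 replicate B. For PGCRURSE5 it was 1.27 (SE 0.47, unadjusted p = 0.0272), 0.81 without H1 replicate B and 2.00 when H2 replicate A was left out. For Pat3-k1 it was -0.66 (SE 0.29, unadjusted p = 0.0491), and for its namesake -0.78 (SE 0.29, unadjusted p = 0.0267). When libraries were left out, the former ranged from -0.95 to -0.46 and the latter from -1.08 to -0.56. The 2 libraries of L1 carry the highest PGCRURSE5 and the lowest Pat3-k1 levels of the series, and this contrast averages them with H1. At high TSC the PGCRURSE5 mean was lower at strong expression, with 16.8 CPM in H1 and 33.98 CPM in H2. For 12S globulin 1-like, L1 replicate A (45.0 CPM) lay below both L2 libraries (58.6 and 51.9 CPM). The Pat3-k1 mean was not lower in H1 (3645 CPM) than in H2 (3451 CPM).

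Other genes of the storage pathway were looked up by product name. Over all tested genes, edgeR gave an unadjusted p under 0.05 for 5.73% in H1/L1 and 2.36% in H2/L2. The shares in DESeq2 were 6.64% and 2.72%. Beside these shares, counts of 0 or 1 in lists this short do not set the lists apart from other genes. Of 6 genes for vacuolar processing enzymes and vacuolar sorting receptors, which cleave and deliver storage proteins, 0 were at an unadjusted p under 0.05 in H1/L1 and 1 in H2/L2 in edgeR's quasi-likelihood test (1 in H2/L2 and 0 in H1/L1 also in DESeq2). That gene, vacuolar-processing enzyme beta-isozyme (LOC102583556), had a log2FC of -1.28 (SE 0.47, unadjusted p = 0.0259) in H2/L2 and -0.89 (SE 0.47, unadjusted p = 0.0921) in H1/L1. Of 12 seed maturation genes (oleosins, dehydrins and late embryogenesis abundant proteins), 8 had a lower and 4 a higher estimate in L1 than in H1, and 1 was at an unadjusted p under 0.05 against a background of 5.73%, dehydrin HIRD11-like (LOC102598409) at a log2FC of -1.97 (SE 0.82, unadjusted p = 0.0421). The summed level of this list was 787 and 292 CPM in H1 replicate A and H2 replicate B, against 97.3 to 152 CPM elsewhere. In these 2 libraries PGCRURSE5 had 9.05 and 12.4 CPM and the CRD-like gene 68.7 and 98.7 CPM. The gene 12S globulin 1-like had 115 and 40.4 CPM there. No value of the seed maturation list without these libraries was computed, and a link to the globulins was not tested. Of 8 genes matched by name as possible regulators (ABI5-like bZIP factors and VAL repressors), 0 were at an unadjusted p under 0.05 in H1/L1 or H2/L2. This held in edgeR's quasi-likelihood test and in DESeq2. The list held no gene named LEAFY COTYLEDON or storekeeper, and whether its genes act on storage genes in the tuber was not tested.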

How the data were processed

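RNA-seq counts of 8 libraries (2 replicates of each of 4 bulks, grouped by the sample labels) were analysed. The authors trimmed paired-end reads with Trimmomatic, aligned them with Bowtie 2.1.0 and TopHat 2.0.9 to SolTub_3.0, counted reads per gene with HTSeq and deposited raw counts. The strand and multimapping settings used for counting are not stated in any source used here. The authors' tables of their comparisons also hold normalized counts, fold changes, log2 values, standard errors, p-values and FDR, which were not used, as were 2 count columns that match no sample. The 192484 counts repeated in these tables equalled those of the full table.

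The filter filterByExpr kept 20389 of 32768 genes, all 27 members among them. Counts were scaled by TMM and tested with edgeR 4.0.16 (quasi-likelihood test, R 4.3.3), fitting 1 mean to each bulk over all 8 libraries, and Benjamini-Hochberg adjustment over all tested genes. Library totals of 15293539 to 31943185 counts and 2 libraries per bulk set the precision. The procedure was tested on simulated data. The simulated counts were drawn independently for each library, with changes set in L1 only. They held no libraries that stood apart, so the simulation does not cover the effect of such libraries. Alternatives were DESeq2 1.42.0, RLE size factors, library totals, no filter, the 4 libraries of a comparison, the replicate letter as a block and each library left out. After seeing the data, leaving out H1 replicate A with H2 replicate B and exchanging the letters of H2 were added. Members, gene lists and the rule for naming (members at an unadjusted p under 0.05, those the study selected, the neighbour of PGCRURSE5 and the 3 storage patatins of highest CPM) were chosen with earlier results of these data known. Gene types and synonyms are from the RefSeq annotation of SolTub_3.0, which held all 27 members, 19 with the coordinates of the files. The RT-qPCR and mapping data were not analysed here.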

Additional observations from a re-analysis of the deposited data

Results flagged for a closer look

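PGCRURSE5 (LOC102601158) moved in opposite directions with low TSC in the 2 pairs of bulks, with no overlap between the libraries in either pair. It had 96.2 and 130 CPM in L1 above 9.05 and 24.6 CPM in H1, and 9.58 and 9.79 CPM in L2 below 55.6 and 12.4 CPM in H2. The interaction log2FC was 4.55 (SE 0.98), with a Benjamini-Hochberg FDR of 1.00 in edgeR's quasi-likelihood test and of 0.00510 in DESeq2. It was between 3.09 and 5.46 when 1 or 2 libraries were left out. The log2FC in H2/L2 was -0.34 without H2 replicate A. PGCRURSE5 was flagged by this very pattern, so the lack of overlap is no added evidence. The share of all genes with such a pattern was not counted. The study selected this gene on the same libraries.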

How the results depend on the processing

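The number of members called by edgeR stayed at 0 in all 5 contrasts with the replicate block, with each library left out, with RLE size factors or library totals and with no filter, and in H1/L1 and H2/L2 also with the 4 libraries of a comparison. DESeq2 called 2 members in H1/L1 and 1 in the interaction, and 0 in the other contrasts. At an unadjusted p under 0.05, DESeq2 gave 8 members in H1/L1, 5 in H2/L2 and 7 in high/low AGPaseS-a, and the fit with no filter on low counts gave 5 in H2/L2. Leaving out libraries, the pair H1 replicate A and H2 replicate B included, gave 3 to 7 members at that p in H1/L1, 1 to 7 in H2/L2, 3 to 9 in H/L, 2 to 6 in the interaction and 1 to 8 in high/low AGPaseS-a, and a bulk left with 1 library was assumed to vary like the others. The directions that turned did so when libraries were left out: the storage patatin median ranged from -0.43 to 0.21 in H2/L2 and from -1.45 to 0.03 in the interaction, patatin-05-like (LOC102605260) ranged from -0.35 to 0.70 in H1/L1 and from -0.41 to 0.85 in H2/L2, LOC102595370 from -0.22 to 0.46 in H2/L2 and the CRD-like gene (LOC102600491) from -1.43 to 0.046 in H2/L2. With library totals the median log2FC of all tested genes was 0.14 in H1/L1, 0.12 in H2/L2 and 0.14 in H/L, against 0.02, 0.01 and 0.02 with TMM, and no named member changed sign. The replicate letters had no common direction over the bulks, since the A minus B differences correlated between -0.54 (H1 and H2) and 0.20 (H1 and L1) across genes. These correlations cannot show whether libraries of the same letter were prepared together, which no source used here states. With the replicate block there were 4 members at an unadjusted p under 0.05 in H1/L1, 3 in H2/L2, 5 in H/L, 3 in the interaction and 3 in high/low AGPaseS-a. With the letters of H2 exchanged, chosen after seeing the data, the counts under the replicate block were 7, 5, 7, 4 and 5 in the same order. With 2 libraries a bulk and the spread between them, the intervals of most members span both directions, so a member not called is not shown to be unchanged.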
